A study of Homo sapiens with 2 samples.

Results

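The ARID family is a set of genes whose proteins share the AT-rich interaction domain, a helical fold that binds DNA. The 9 genes described here, ARID3B, ARID3A, ARID1A, ARID1B, ARID2, ARID4B, JARID2, ARID5A and ARID5B, were chosen by name from the platform annotation, out of 19775 genes with a probe set of their own, and they had 31 probe sets in all. ARID3B was the gene targeted in the experiment. Cells of HCT15, an established line from a human colorectal adenocarcinoma, received ARID3B-Cas9 (Cas9 with a guide directed at ARID3B, labelled an ARID3B knockout) or a control. Both cultures were kept in RPMI with fetal bovine serum, and the total RNA of each was measured on 1 Affymetrix array. The sources used here do not say whether the cells labelled knockout were a single clone or a pool, or what the control cells received.

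Some ARID proteins act alone as DNA-binding factors and others as subunits of chromatin complexes. ARID3A and ARID3B bind AT-rich DNA. ARID1A and ARID1B are alternative subunits of the BAF form of the SWI/SNF nucleosome remodeller, and ARID2 is a subunit of its PBAF form. ARID4B belongs to the SIN3 histone deacetylase complex, JARID2 accompanies the Polycomb repressive complex PRC2, ARID5A binds and stabilises inflammatory mRNAs, and ARID5B is a transcriptional coactivator. ARID1A and ARID2 are recurrently mutated in human tumours.

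The deposited values were log2 expression values after robust multi-array averaging (RMA). Every difference below is the knockout-labelled minus the control array on that scale. A probe set was taken as measurable when the higher of its values reached the floor of 4.59 (the median over the non-control probe sets), and 12841 genes (64.9%) met this in the brightest probe set, which stood for the gene. A single array per group allows no test, and precision is limited by the number of arrays. Differences are therefore set beside the local spread, which ran from 0.26 to 0.44. It is the scaled median absolute deviation of the differences of 1283 to 1287 genes of similar mean expression. Taken across genes of the same 2 arrays, it can hold real differences as well as noise and is not a measurement error. The local spread of a gene was taken at the level of its brightest probe set, also where its other probe sets are set beside it. Of the 10 intestinal epithelial markers 8 were measurable. EPCAM read 12.2 on both arrays, and KRT18 read 12.4 on the knockout-labelled array, against 12.3 on the control array. CDH1 was lower by more than its local spread (-0.45). CDX2 (0.64) and KRT19 (0.27, local spread 0.26) were higher by more than theirs. KRT8 (0.08), CDX1 (0.14) and VIL1 (-0.21) were within theirs. KRT20, a marker of differentiated colonic cells, and CDH17 were under the floor on both arrays. Of the leukocyte, fibroblast and endothelial markers PTPRC, COL1A2, COL3A1, LUM, VWF, CDH5 and KDR were under the floor on both arrays. COL1A1, CD14, PECAM1 and CD3E reached it on both arrays, and DCN only on the knockout-labelled one (4.61). On the knockout-labelled and the control array COL1A1 read 7.12 and 6.87, and CD14 read 6.54 and 6.51. PECAM1 read 5.73 and 5.55, and CD3E read 4.87 and 4.71. A second COL1A1 probe set differed by -2.47.

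ARID3B itself was higher on the array labelled knockout. Its only probe set read 6.09 on the knockout-labelled array, against 5.12 on the control array. The difference of 0.97, or 1.95-fold, was 2.83 times the local spread of 0.34. It was 0.42 with 64 linear units added to every value and 2.15 when the arrays were scaled on spike-in RNA (described at the end). Its size thus depended on the setting, and by construction neither of these settings could reverse its direction. Among the 1287 genes of similar expression 1.63% were higher by at least as much, and 8.16% differed by as much in either direction. The transcript of the gene that the label says was knocked out was thus not lower in this probe set, and the array is called knockout-labelled for that reason. The position of the guide and of the probes within the gene was not available for comparison. The probe set therefore does not show whether an edited stretch was transcribed. The arrays read RNA and not protein, so this value does not show whether the knockout succeeded. With 1 array per group the labels could not be checked. The probe set was designed from a RefSeq transcript of ARID3B.

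**Figure D1:**
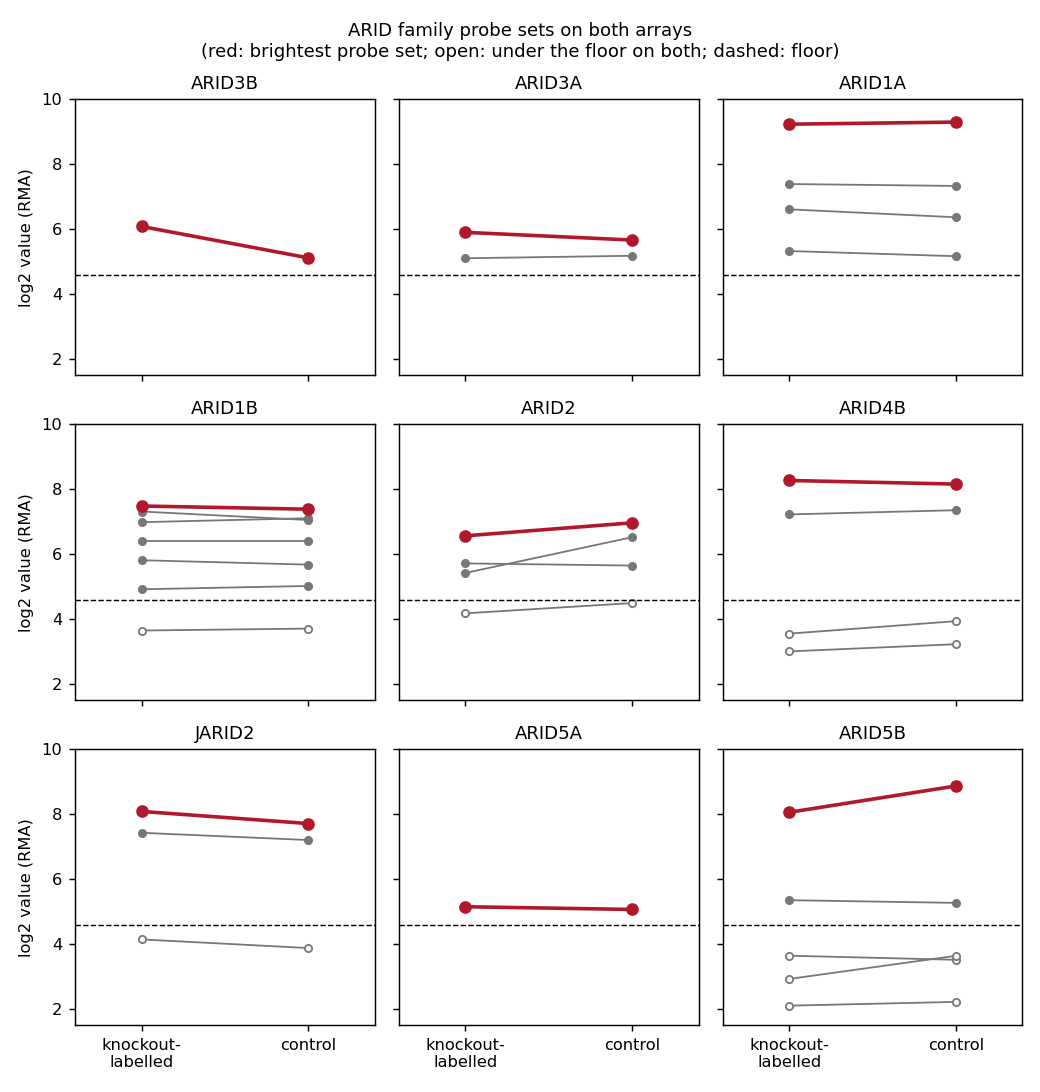
Log2 value (RMA, y axis) of every probe set of the 9 ARID genes on the knockout-labelled and the control array (x axis), 1 panel per gene, with lines joining the values of 1 probe set. The red line is the brightest probe set, open circles were under the floor (dashed, 4.59) on both arrays; the red line of ARID3B is higher on the knockout-labelled array (6.09 against 5.12) and that of ARID5B is lower (8.06 against 8.87). Heights of different probe sets are not comparable.

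No other member was higher by more than its local spread. All 9 members were measurable, 6 were higher and 3 lower, and the median difference was 0.10, against 0.04 over all genes compared. Spike-in scaling moves every gene up alike, and with it 9 members were higher and 0 lower, against a median of 1.22 over all genes. Without that scaling 52.9% of all genes were higher and 45.1% lower. No member reached a 2-fold difference in its brightest probe set, where 1.05% of all genes were at least 2-fold higher and 3.79% at least 2-fold lower. At 1.5-fold 1 member was higher (ARID3B) and 1 lower (ARID5B), against 5.83% and 10.5% of all genes. The same pair were the members beyond their local spread, against 16.4% of all genes beyond it upward and 18.4% downward. The remaining 7 lay within it. With 9 members, counts of 1 do not stand apart from these shares.

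**Figure D2:**
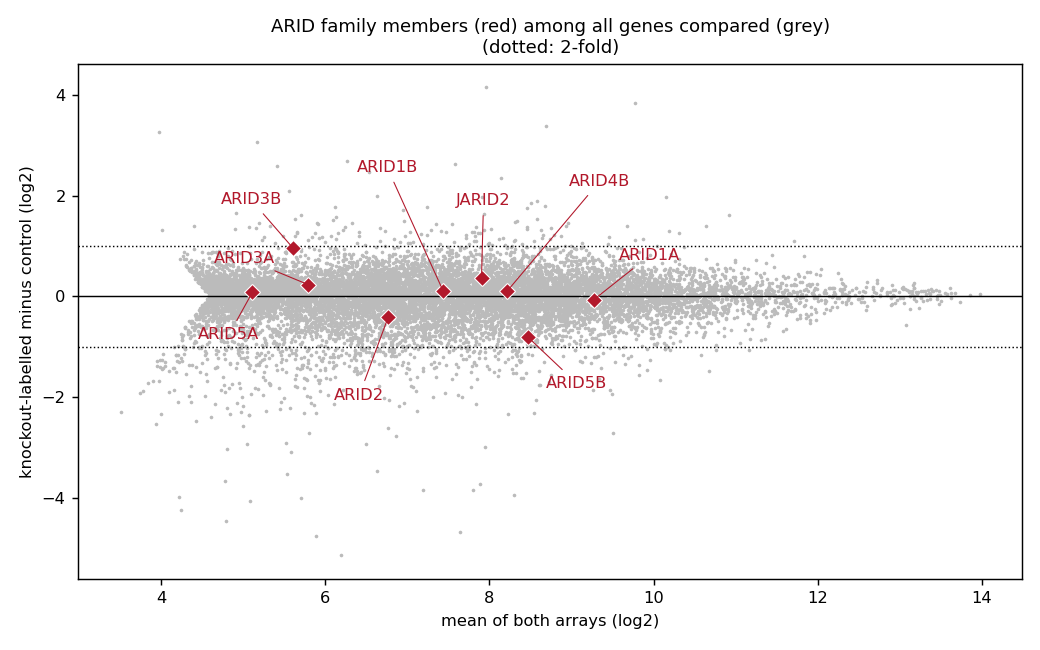
Difference between the knockout-labelled and the control array (log2, y axis) against the mean of both arrays (log2, x axis) for 12841 genes, each by its brightest probe set, with the 9 ARID genes as red diamonds. ARID3B lies just under the upper dotted line (2-fold) and ARID5B above the lower one, and the other 7 lie between 0.37 and -0.40.

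ARID3A, also called Bright, is the closest relative of ARID3B and is known as an activator of the immunoglobulin heavy chain gene in B cells. Its brighter probe set read 5.91 on the knockout-labelled array, against 5.67 on the control array, a difference of 0.24. Its other probe set, the one designed from a RefSeq transcript, read 5.11 on the knockout-labelled array, against 5.19 on the control array, a difference of -0.08. The probe sets of ARID3A thus gave opposite signs, both within the local spread of 0.34. The paralog of the targeted gene had no probe set beyond that spread.

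By the nearest pair of values, 3 genes were most like ARID3B over the 2 arrays. KLF7, a Krüppel-like transcription factor, read 6.05 on the knockout-labelled array, against 5.17 on the control array. SENP7, a SUMO protease, read 6.14 on the knockout-labelled array, against 5.16 on the control array. TTBK2, a kinase required for the formation of cilia, read 6.13 on the knockout-labelled array, against 5.20 on the control array. The Euclidean distances of these pairs from ARID3B were 0.059, 0.062 and 0.084 on the log2 scale. Likeness over 2 arrays says only that level and difference were alike.

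The SWI/SNF members did not move together. ARID1A was the most even of the 9 in its brightest probe set, with 9.24 on the knockout-labelled array, against 9.30 on the control array, a difference of -0.06. Its other 3 probe sets differed by 0.06, 0.24 and 0.16, so that 3 of 4 were slightly higher, all within the local spread of 0.36. ARID1B, the alternative to ARID1A in BAF, read 7.49 on the knockout-labelled array, against 7.39 on the control array, a difference of 0.10. Of its 6 measurable probe sets 3 were higher, 2 were lower and 1 had the identical value of 6.41 on both arrays, with differences from -0.12 to 0.26. Identical values were common in this table, at 6.73% of the non-control probe sets.

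ARID2, a defining subunit of PBAF, held the widest disagreement among the members with several probe sets. Its brightest probe set read 6.57 on the knockout-labelled array, against 6.97 on the control array, a difference of -0.40, within the local spread of 0.44. A second one read 5.43 on the knockout-labelled array, against 6.53 on the control array, a difference of -1.10 or 2.14-fold lower. The third, designed from a RefSeq transcript, read 5.72 on the knockout-labelled array, against 5.65 on the control array, a difference of 0.07. The fourth was under the floor on both arrays, with 4.18 on the knockout-labelled array, against 4.50 on the control array. The measurable probe sets of ARID2 thus spanned 1.17, and 4.90% of the 1654 genes with 3 measurable probe sets spanned as much or more (their median was 0.37). The difference that ARID2 can be given thus runs from 0.07 to -1.10, according to the probe set read.

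The probe sets of ARID4B also gave opposite signs. ARID4B, which links the SIN3 complex to retinoblastoma proteins, read 8.28 on the knockout-labelled array, against 8.16 on the control array in its brightest probe set, a difference of 0.11. The second measurable one differed by -0.13, with 7.23 on the knockout-labelled array, against 7.36 on the control array. The other 2 were under the floor on both arrays and differed by -0.38 and -0.22. The measured differences lay within the local spread of 0.39.

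JARID2 was the one member with several probe sets in which all had the same sign. JARID2 carries a Jumonji domain without the demethylase activity of its relatives and helps to bring PRC2 to its target genes. Its brightest probe set read 8.09 on the knockout-labelled array, against 7.72 on the control array, a difference of 0.37 or 1.30-fold. The second read 7.43 on the knockout-labelled array, against 7.21 on the control array, a difference of 0.22, and the third, under the floor on both arrays, read 4.15 on the knockout-labelled array, against 3.88 on the control array. JARID2 was thus higher on the knockout-labelled array by a small amount, just under its local spread of 0.39. Among the genes of similar expression 17.2% were higher by at least as much.

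ARID5A was level between the arrays. Its only probe set read 5.16 on the knockout-labelled array, against 5.07 on the control array, a difference of 0.08 against a local spread of 0.26. ARID5A is known for protecting the IL6 mRNA from decay, and IL6 itself was under the floor on both arrays.

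ARID5B was the lowest member on the knockout-labelled array, by its brightest probe set alone, and with spike-in scaling this value turned to 0.38. ARID5B works with the histone demethylase PHF2 and is known for roles in fat cells, in lymphoid leukaemia and in development. The brightest probe set read 8.06 on the knockout-labelled array, against 8.87 on the control array, a difference of -0.81 or 1.75-fold lower, which was 2.09 times the local spread of 0.39. Among the genes of similar expression 4.44% were lower by at least as much. The other measurable probe set read 5.36 on the knockout-labelled array, against 5.27 on the control array, a difference of 0.08. Of the 3 under the floor on both arrays, 1 differed by -0.71, 1 by -0.12 and 1 by 0.13. The lower value of ARID5B thus rests on a single measurable probe set of 2, and their gap of 0.89 was reached by 5.08% of the 3442 genes with 2 measurable probe sets (median 0.19). The mean of all 5 probe sets differed by -0.29.

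**Figure D3:**
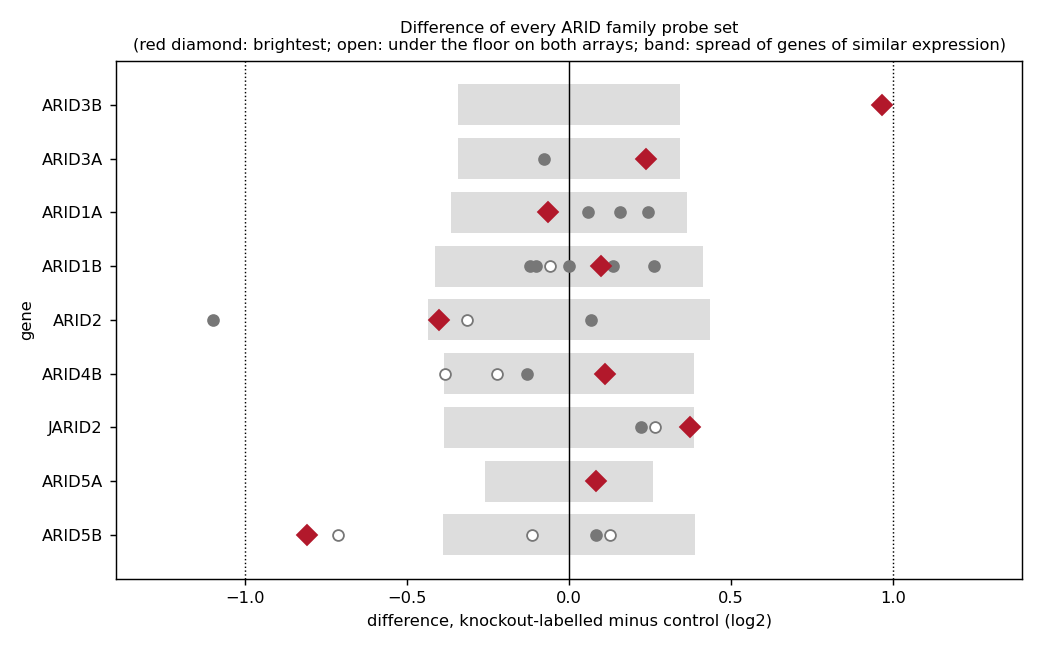
Difference of each ARID probe set (knockout-labelled minus control, log2, x axis) by gene (y axis). The red diamond is the brightest probe set, and open circles are probe sets under the floor on both arrays. The grey band is the local spread of genes of similar expression to the brightest probe set, drawn for all probe sets of the gene. The diamonds of ARID3B (0.97) and ARID5B (-0.81), 1 grey point of ARID2 (-1.10) and 1 open circle of ARID5B (-0.71, under the floor) lie clearly outside the band, and only JARID2 has several measurable probe sets on 1 side of 0.

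Taking the probe sets one by one, 23 of the 31 were measurable and 8 were under the floor on both arrays. Of the 23, 14 were higher, 8 lower and 1 equal on the knockout-labelled array, with a median difference of 0.08. Of these, 1 (ARID2) was at least 2-fold lower and 0 were at least 2-fold higher, against 4.02% and 1.34% of all measurable single-gene probe sets. At 1.5-fold 1 was higher (ARID3B) and 2 were lower (ARID2 and ARID5B), against 6.25% and 11.3% of all. Of the 7 members with at least 2 measurable probe sets, 1 (JARID2) had the same sign in all of them, against 61.1% of the 6297 such genes. That share was not matched for the number of probe sets, since 3442 of those genes had only 2, while ARID1B had 6 and ARID1A 4. Probe sets of one gene share its RNA and are not replicates of the condition.

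Several members have more than 1 annotated start, and a gene value can mix the transcripts of each. RefSeq windows around transcription starts (assembly GRCh38.p14, 250 bases before to 50 after a start) were at hand for 6 of the 9 members, and 4 of these 6 had 2 starts. ARID3B, ARID3A and ARID2 had no window. The starts of ARID5B are shown because its probe sets disagreed and its starts lie far apart. JARID2 was higher in every probe set, and of its 2 starts only the downstream one is shown. That window held the letters marked below, and the upstream JARID2 window held none of them. The probe sets were not placed on either transcript. Capitals mark TGATGCAA, the composite element of C/EBP and ATF proteins, and TGACGTCA, the cAMP response element of CREB and ATF proteins, each searched on both strands after the letters had been seen.
ARID5B upstream start, chr10:61901449-61901748, plus strand: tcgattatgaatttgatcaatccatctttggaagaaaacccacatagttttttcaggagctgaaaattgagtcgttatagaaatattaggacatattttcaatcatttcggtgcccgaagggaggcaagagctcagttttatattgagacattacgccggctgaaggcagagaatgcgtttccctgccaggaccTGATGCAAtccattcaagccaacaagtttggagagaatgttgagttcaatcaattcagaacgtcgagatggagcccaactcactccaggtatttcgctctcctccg
ARID5B downstream start, chr10:62049107-62049406, plus strand: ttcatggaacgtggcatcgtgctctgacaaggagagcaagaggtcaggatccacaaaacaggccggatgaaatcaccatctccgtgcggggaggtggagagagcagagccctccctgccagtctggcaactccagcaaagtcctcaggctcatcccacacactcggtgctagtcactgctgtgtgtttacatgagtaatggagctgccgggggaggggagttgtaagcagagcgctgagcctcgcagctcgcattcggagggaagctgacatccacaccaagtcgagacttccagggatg
JARID2 downstream start, chr6:15248605-15248904, plus strand: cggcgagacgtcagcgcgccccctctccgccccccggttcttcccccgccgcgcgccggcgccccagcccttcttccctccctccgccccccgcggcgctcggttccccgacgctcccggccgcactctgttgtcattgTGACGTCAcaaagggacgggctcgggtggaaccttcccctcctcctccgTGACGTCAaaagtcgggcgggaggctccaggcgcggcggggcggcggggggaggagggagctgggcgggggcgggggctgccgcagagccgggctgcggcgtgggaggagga

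The ARID5B windows were poorer in G and C than those of most members. G and C made up 43.0% of the upstream and 57.3% of the downstream ARID5B window, against 76.3% of the JARID2 window shown and a median of 58.7% over all 35116 windows of the table. The upstream ARID5B window held TGATGCAA once, from position -56 relative to the start, and 0.866% of all windows held it. The JARID2 window shown held TGACGTCA at 2 places, from -111 and from -62, and 1.85% of all windows held it. Each of these 2 elements was in 1 of the 10 windows of members. ATTAAA, an AT-rich hexamer of the kind that ARID3 proteins bind, was in 0 of the 10 windows of members and in 12.2% of all windows. These matches describe letters and show no binding.

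Further ARID domain genes outside the 9 are the KDM5 demethylases, which remove methyl groups from histone H3. KDM5A read 8.06 on the knockout-labelled array, against 7.64 on the control array, a difference of 0.41 in its brightest probe set. Of its other 3 measurable probe sets 2 were lower and 1 was equal, down to -0.67. KDM5B was even in its brightest probe set, with 7.05 on the knockout-labelled array, against 7.04 on the control array. Of its 3 measurable probe sets 2 were lower, down to -0.33. KDM5C differed by 0.32. ARID3C and ARID4A had no single-gene probe set in the annotation used.

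The complexes in which ARID subunits work were compared by lists of their other members. Among 23 measurable BAF and PBAF subunits 0 were 2-fold different in either direction. At 1.5-fold 1 was higher and 0 lower, against 5.83% and 10.5% of all genes. Their median was 0.12, with 16 higher and 7 lower. DPF2, a reader of histone marks in BAF, read 8.89 on the knockout-labelled array, against 8.24 on the control array (0.65), and the actin-like ACTL6A read 10.2 on the knockout-labelled array, against 9.57 on the control array (0.58). Some other subunits, named after their values were seen, kept 1 sign over their probe sets, in either direction. Each was within the local spread in its brightest one. Of all genes with at least 2 measurable probe sets 61.1% kept 1 sign. SMARCA4, the main ATPase, differed by 0.16 and was higher in all 7 of its measurable probe sets. PBRM1 (-0.12) was lower in all 5, and SMARCC1 (-0.04) and SMARCE1 (-0.08) were lower in all 4 of each, SMARCE1 by as much as -0.96 in 1 of them. SMARCA2, SMARCD1, SS18, PHF10 and BRD7 had measurable probe sets of both signs. Those of SMARCA2 ran from -0.75 to 0.33 and those of BRD7 from -0.64 to 0.18.

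The genes of PRC2, the partner complex of JARID2, did not move one way. Of 11 measurable genes 3 were higher and 8 lower, with a median of -0.06. At 1.5-fold 1 was higher and 0 lower, against 5.83% and 10.5% of all genes, and with 11 genes these counts do not stand apart from those shares. The gene past 1.5-fold was PHF1, an accessory subunit, with 8.56 on the knockout-labelled array, against 7.71 on the control array, a difference of 0.85 that its second probe set matched at 0.87. MTF2, a related accessory subunit, differed by -0.52 when read by its brightest probe set, and the others reached 0.56. Among the core subunits, named after their values were seen, EZH2 (-0.06), SUZ12 (-0.14) and EED (-0.31) were each within the local spread. EZH1, the catalytic alternative to EZH2, read 7.22 on the knockout-labelled array, against 6.73 on the control array, a difference of 0.49 beyond its local spread of 0.44, and it was higher in all 4 measurable probe sets.

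The SIN3 list, the partners of ARID4B, had the highest median of the partner complexes at 0.34. Of 11 measurable genes 7 were higher and 4 lower. At 1.5-fold 4 were higher and 0 lower, against 5.83% and 10.5% of all genes, and 0 reached 2-fold. The list was chosen with earlier results of these data known, so this count is description only. SUDS3, a core subunit, read 8.39 on the knockout-labelled array, against 7.61 on the control array (0.78), and SAP30 read 9.22 on the knockout-labelled array, against 8.53 on the control array (0.69), each with the same sign in all measurable probe sets. The others past 1.5-fold were SIN3A (0.67), which was lower in 2 of its 3 measurable probe sets, down to -0.62, and ING1 (0.60), which was higher in all 4. The deacetylases differed the other way, HDAC1 by -0.42 and HDAC2 by -0.36. ING1, SIN3A and the deacetylases were named after their values were seen.

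Retinoblastoma proteins and E2F factors, which ARID3A and ARID4B are known to bind, did not move one way. Among 10 measurable genes 4 were higher and 6 lower, with a median of -0.13. At 1.5-fold 0 were higher and 2 lower, against 5.83% and 10.5% of all genes, and with 10 genes these counts do not stand apart from those shares. E2F5 read 7.15 on the knockout-labelled array, against 7.88 on the control array (-0.73), and E2F3 read 7.71 on the knockout-labelled array, against 8.37 on the control array (-0.66), lower in both its probe sets. The growth-restraining pocket proteins, named after their values were seen, differed in sign: RB1 (0.41) and RBL2 (0.54) were higher in both probe sets of each, while RBL1 (-0.22) was lower in 2 of its 3.

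Partners and targets of ARID5 proteins gave 4 measurable genes, 2 higher and 2 lower, with a median of 0.13. IL6ST, the signal-transducing receptor of the IL6 family, read 9.22 on the knockout-labelled array, against 9.82 on the control array (-0.60) and was lower in all 5 measurable probe sets. TNFRSF4, whose mRNA ARID5A stabilises in mouse T cells, did not reach the floor on the control array, so that it was at least 1.25-fold higher, the bound set by the floor. PHF2, the partner of ARID5B, was named after its values were seen and differed by 0.48. Genes of the let-7 axis, of which ARID3B is a known target, gave 4 measurable genes, 2 higher and 2 lower, with a median of -0.01. HMGA1 read 9.82 on the knockout-labelled array, against 9.23 on the control array (0.59), and HMGA2 read 6.56 on the knockout-labelled array, against 7.08 on the control array (-0.51).

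**Figure D4:**
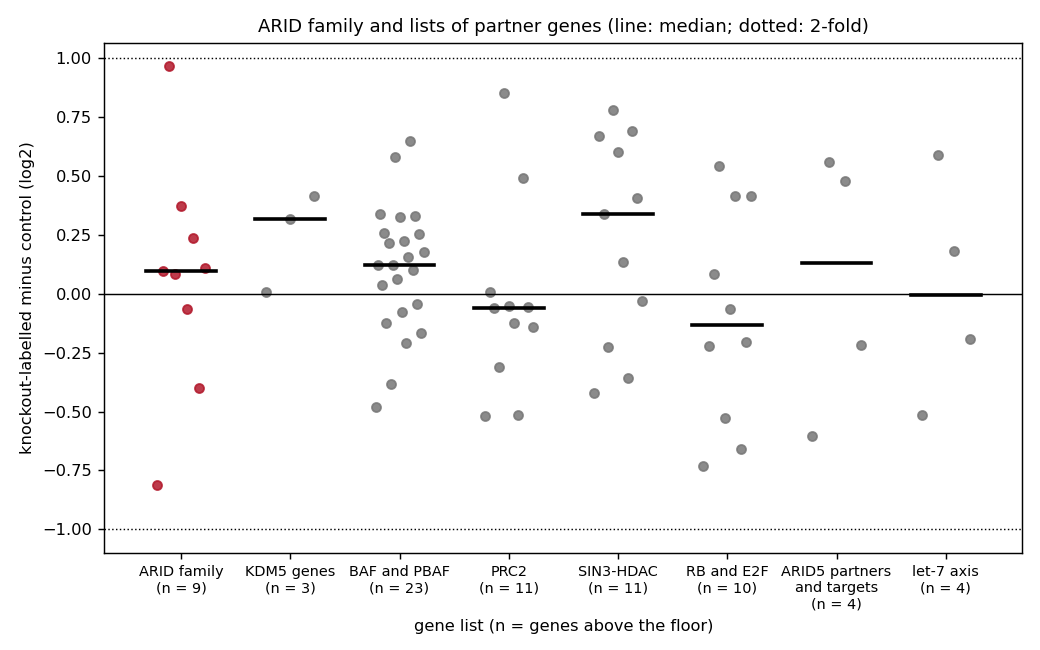
Difference (knockout-labelled minus control, log2, y axis) of each measurable gene of the ARID family (red) and of the lists of partner genes (grey), by its brightest probe set, with a black line at the median of each list. No point passes the dotted 2-fold lines, and the median runs from -0.13 for RB and E2F factors to 0.34 for the SIN3 list.

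All directions above are relative to the other genes of an array, since RMA sets the arrays to a common distribution. Poly-A spike-ins are bacterial RNAs commonly added to a sample ahead of labelling. Their 24 probe sets averaged 5.67 on the knockout-labelled array, against 6.86 on the control array, and none of the 24 was higher on the knockout-labelled array. All 24 read only the dap, lys, phe and thr RNAs, so they are not 24 separate measurements. Scaled on them, every difference moves up by 1.19. ARID3B then differed by 2.15, 7 of the 9 members were at least 2-fold higher and 0 lower, and ARID5B turned to 0.38 and ARID2 to 0.79, and the median of every list of partner genes lay above 0. Over all genes 9137 were then at least 2-fold higher and 44 lower, against 135 and 487 without that scaling. The amount of spike-in added to each sample is unknown here, and its part in these differences was not tested.

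**Figure D5:**
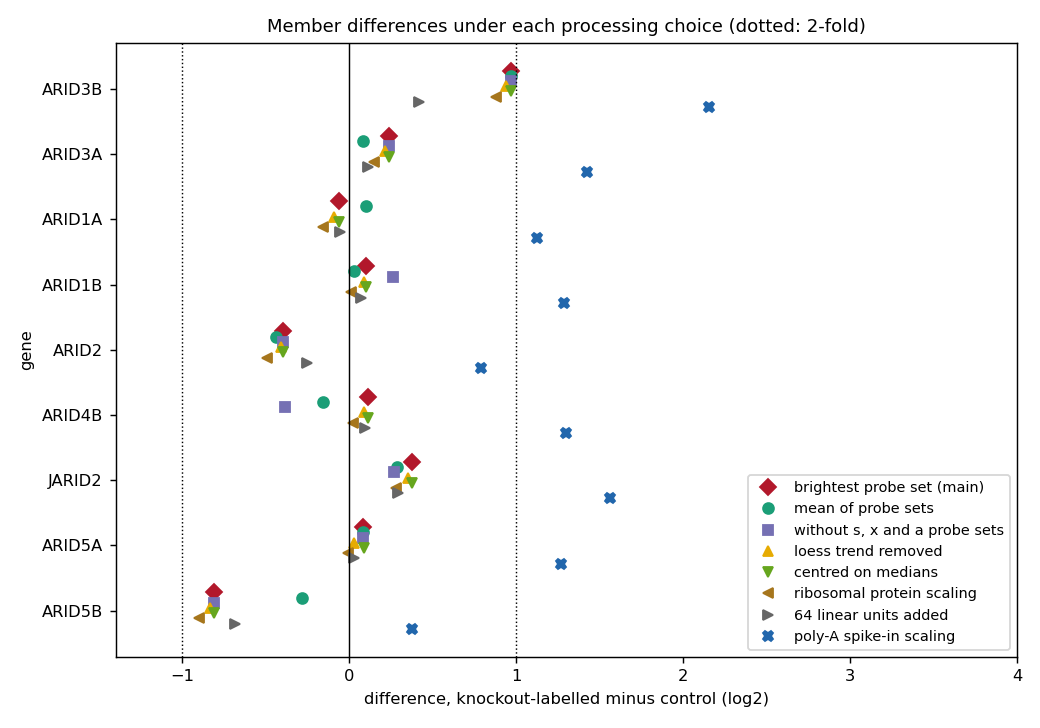
Difference of each ARID gene (knockout-labelled minus control, log2, x axis) under 8 ways of processing the same values (symbols), by gene (y axis). Most symbols of a gene lie together; scaling on the poly-A spike-ins (blue crosses) moves every gene up by 1.19, adding 64 linear units lowers ARID3B to 0.42, and the mean of probe sets brings ARID5B to -0.29.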

How the data were processed

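The data were 1 array of HCT15 cells that received Cas9 and a guide against ARID3B and 1 array of control cells. The authors deposited log2 values, and the submitters' processing notes name RMA without a version. This method corrects background, brings the arrays to one distribution and combines the probes of each set, so that total RNA differences are removed and dim differences are compressed. Of 54613 non-control probe sets 41091 had 1 gene symbol in the platform annotation and were used. Symbols were checked by Entrez identifier against a RefSeq table of GRCh38.p14, which held 41037 of them and changed 0. Differences were computed in Python 3.11.15 with numpy 2.4.6 and pandas 2.3.3, and the procedure was tested on simulated data with known differences. The planted differences were larger than that of any member probe set, lay in genes brighter than ARID3B, and were shared by all probe sets of a gene. The simulation therefore does not bear on small differences or on probe sets that disagree. The 9 members and the lists were chosen with earlier results of these data known. Named genes were the members, for each list the genes past 2-fold or else the 2 with the largest difference, and the 3 nearest to ARID3B. Alternatives were the mean of probe sets, leaving out probe sets whose names mark possible cross-matches, a loess trend (statsmodels 0.14.6, span 0.3), centring, scaling on 51 ribosomal protein genes or on spike-ins, 64 linear units added, other floors and a 1.5-fold threshold. Raising values to the floor and leaving ARID3B out of the median were added after the data were seen.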

Additional observations from a re-analysis of the deposited data

How the results depend on the processing

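With 1 array per group no depth or replicate error can be given. No paired analysis was possible because each group holds 1 sample. The ARID3B difference of 0.97 was 2.15 with spike-in (poly-A) scaling and 0.42 with 64 linear units added, and it ran from 0.88 to 0.97 under the other settings. ARID3B had only 1 probe set, with no mark of cross-matching and above the floor on both arrays. Averaging or filtering probe sets and raising values to the floor therefore could not move it. The count of 0 members at least 2-fold higher became 7 with spike-in scaling and 1 at the 1.5-fold threshold. The count of 0 at least 2-fold lower became 1 at 1.5-fold. The family median of 0.10 was 1.28 with spike-in scaling, 0.09 without ARID3B, and between 0.01 and 0.16 otherwise. ARID5B changed sign to 0.38 with spike-in scaling. Spike-in scaling shifts every gene alike by construction, and adding linear units compresses dim genes by construction. ARID4B differed by -0.38 where possibly cross-matching probe sets were left out, and ARID5B by -0.29 where probe sets were averaged. Filtering left ARID1A with no value and took ARID4B and JARID2 under the floor. Over all genes, the 135 genes at least 2-fold higher and 487 lower became 83 and 330 with averaged probe sets and 46 and 117 with 64 linear units added.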

Other observations

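A pair of further probe sets named ARID4B together with RBM34 and were left out of the gene values, since they cannot be given to one gene. One read 9.46 on the knockout-labelled array, against 9.49 on the control array, a difference of -0.03, and the other read 6.81 on the knockout-labelled array, against 7.09 on the control array, a difference of -0.28. JARID2-AS1, a non-coding RNA transcribed opposite to JARID2, was under the floor on both arrays, with 3.33 on the knockout-labelled array, against 3.35 on the control array. TFDP1, a dimer partner of E2F factors that was named after its values were seen, differed by -0.53 and was lower in all 3 of its measurable probe sets. TFDP2 of the same list differed the other way in its brightest probe set, by 0.42 against a local spread of 0.39. It was lower in 2 of its 3 measurable probe sets.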
